A study of Mus musculus with 10 samples.

Results

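This account covers 40 mouse genes of triglyceride, fatty acid and lipid droplet metabolism in C2C12 myoblasts given a miR-142-3p mimic. The array holds 34607 genes, counting probes without a known gene symbol under their own names. The members are a fixed list of gene names. Every non-control probe carrying one of these names was read, which gave 60 probes, and the genes were kept apart as makers of fatty acids and triglycerides, droplet coat genes and lipolysis genes. Of the 40 members, 31 had a probe bright enough to be tested and 9 did not.

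Cells build triglyceride from activated fatty acids and glycerol phosphate through a chain of acyltransferases and the lipin phosphatases, and the DGAT enzymes add the last acyl chain. The product is stored in lipid droplets coated by perilipins. Adipose triglyceride lipase (Pnpla2), hormone-sensitive lipase (Lipe) and monoglyceride lipase (Mgll) take the acyl chains off again, with Abhd5 as the coactivator of the first of these enzymes and G0s2 as its inhibitor. Muscle cells use such droplets as a fuel store.

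C2C12 is an immortalised mouse myoblast line that can form myotubes. The mimic group received a synthetic double-stranded RNA that acts like mature miR-142-3p, and the scramble group received a scrambled RNA, both at 150 nM with Lipofectamine, in high-glucose medium with foetal bovine serum. RNA was taken 72 h after transfection, at an estimated transfection efficiency of 60%, so each culture also held cells that were not transfected, and 1 dose and 1 time in 1 line are covered. The labels list 6 mimic and 4 scramble samples as separate transfections, but the scanner headers place the 10 scans on only 5 positions of 1 slide, read on 2 days. Both scans of a position were therefore averaged into 1 array, giving 3 mimic and 2 scramble arrays. The titles of the scramble samples alone carry a remark about re-analysis that the labels do not explain.

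The mature mouse miR-142a-3p of RefSeq lies at chr11:87756903-87756925 on the plus strand of GRCm38.p6 and is shown because the mimic was made to act like it. The sequence of the purchased mimic itself was not used here. The capitals mark the seed, bases 2 to 8, through which a microRNA pairs with its targets.
mmu-miR-142a-3p: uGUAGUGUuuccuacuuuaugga
A match was searched in 2 spellings on the strand of the transcript. ACACTAC pairs with the whole seed, while CACTACA pairs with all seed bases but the last and ends in a fixed A. Either spelling stood in 1 of the 60 member probes (1.67%), against 281 of all 55681 probes of the array (0.505%). That probe belongs to Mgll and holds CACTACA, so the last base of the seed is not matched. The 30 bases around the match are shown with the match in capitals, at chr6:88778303-88778332 on the plus strand in the mm9 coordinates of the files.
Mgll: aagccaatgtgCACTACAgctcaccgtaat
Such a match describes 60 bases per probe, and whether it acts as a target site was not tested. Most of each transcript lay outside the probes. The signal of Mgll, given with the lipolysis genes, was higher on the mimic arrays than on the scramble arrays. The difference was not called (limma, adjusted p = 0.0529), and the probe was well above background on 5 mimic scans and only 1 scramble scan. Whether the mimic acts on Mgll was not tested.

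Values are log2 signals relative to the 75th percentile of the scan, so 1 unit is a doubling and a value below 0 is dimmer than that percentile. Spots well above background made up 25.4% to 34.6% of a mimic scan and 27.9% to 32.4% of a scramble scan. Over 12637 probes the 2 scans of an array correlated at r = 0.990 to 0.993, and scans of different arrays at 0.912 to 0.992, so the ranges overlapped. The scramble arrays differed in their likeness to the mimic group. Taken per array and not per scan, r with the mimic arrays was 0.956 to 0.960 for scramble array 1. For scramble array 2 it was 0.922 to 0.932. These values per array are not on the same footing as the ranges per scan. Muscle genes moved strongly between the same groups. The median of the 8 myotube markers lay between 1.27 and 1.73 on the mimic arrays and between 5.79 and 5.82 on the scramble arrays. Of the 8, 7 were lower (all but Ckm). Of 6 measured myoblast markers, 5 were lower (all but Ncam1, at 0.24 and not called), among them Myod1 at −3.25 (limma, adjusted p = 0.000334). Of the lower markers, Casq2 and Fgfr4 were bright enough to be tested only through their 4 scramble scans. No mimic scan had either of them well above background. Their calls therefore rest on dim mimic signals, and they were at least 12.98-fold and 2.34-fold lower. Tnnc1 also owed its test to the scramble group, as a single mimic scan (1 of 6) had it well above background. The part of this difference in differentiation state in the lipid results was not tested.

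Of 9 adipocyte markers, 7 (Adipoq, Fabp4, Plin1, Cfd, Retn, Lep and Cidec) were well above background on no scan, and of the other 2 Pparg was higher and Cebpa was not called, as given with the other lipid genes. The macrophage markers Ptprc, Adgre1, Lyz2 and Tyrobp were well above background on no scan either, but Cd68, 1 of the 3 macrophage markers measured, averaged 4.74 ± 0.15 on the mimic arrays and −0.09 ± 0.01 on the scramble arrays (SD, n = 3 and n = 2) and was higher (limma, adjusted p = 2.65e-05). The other measured macrophage markers, Csf1r and Itgam, differed by 0.17 and 0.14 and were not called (limma, adjusted p = 0.705 and 0.681). Of 5 fibroblast markers 1 was higher, Lum (2.51, adjusted p = 0.00902), and none was lower. The array measures RNA of whole cultures, in which fewer cells of a kind and less RNA per cell cannot be told apart.

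The comparison of mimic with scramble asked which lipid genes changed when miR-142-3p was raised in myoblasts. Of the 31 measured members, 3 were higher in the mimic group (Plin4, Abhd5 and Agpat2) and 2 were lower (Srebf1 and Dgat2), in limma's test at an adjusted p under 0.05 (Benjamini-Hochberg, over the 13677 genes tested). The 5 called members make 16.1% of those measured, against 9.35% of all genes tested (5.53% higher and 3.82% lower). All genes tested include probes without a known gene symbol, and the share without such probes was not computed. The median difference of the measured members, mimic minus scramble, was −0.11, with 15 differences above 0 and 16 below, and that of all genes tested was 0.09. In 5 members the difference was at least 1 in size (16.1%, against 8.99% of all genes), or in 4 without Mgll, whose scramble signal was mostly not above background. The groups did not overlap in 16 members (51.6%, against 42.6% of all genes), and 12 had an unadjusted p under 0.05 (38.7%, against 25.3%). The changes therefore ran both ways within the list. The set of genes in a role is small, and no test was made of any role as a whole.

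**Figure D1:**
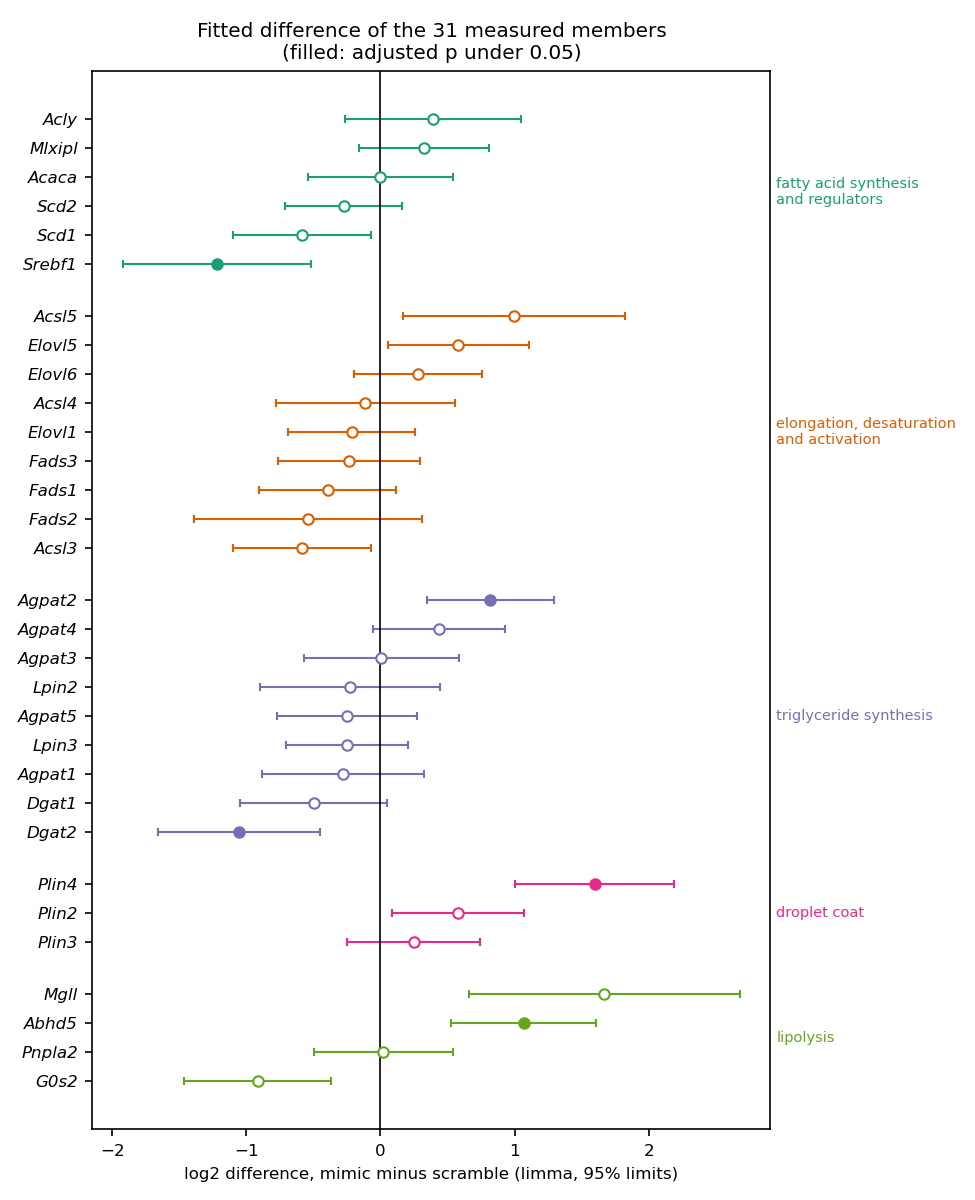
The fitted log2 difference, mimic minus scramble, of each of the 31 measured members, grouped by role and sorted within each role; bars are 95% limits of limma and filled points have an adjusted p under 0.05. Filled points lie right of 0 for Agpat2, Plin4 and Abhd5 and left of 0 for Srebf1 and Dgat2, and Mgll has the widest limits (0.66 to 2.68).

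Among the genes of fatty acid synthesis and its regulators, 6 of 8 were measured, 1 was lower and none was higher, with a median difference of −0.14. The called gene was Srebf1, which encodes the transcription factor SREBP-1 that drives genes of fatty acid synthesis. Its signal was −1.80, −0.79 and −1.04 on the 3 mimic arrays, against −0.03 and 0.04 on the 2 scramble arrays. All mimic arrays lay below both scramble arrays, and the probe cleared the background on 4 of the 6 mimic scans and on all 4 scramble scans. The difference was −1.22 ± 0.30 (SE), a 2.33-fold lower signal in the mimic group (limma, adjusted p = 0.0452). With background corrected by normexp in place of the scanner software's correction, the difference was −0.55 and not called.

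None of the other 5 measured genes of this role was called. Scd1, the stearoyl-CoA desaturase of lipogenic tissues, averaged 3.92 ± 0.05 on the mimic arrays and 4.51 ± 0.38 on the scramble arrays (SD, n = 3 and n = 2), a difference of −0.59 with limits of −1.10 to −0.07 (limma, adjusted p = 0.151). Its relative Scd2 differed by −0.27 (adjusted p = 0.405). The 2 genes had groups that did not overlap, with the mimic arrays the lower ones. Acaca, the cytosolic acetyl-CoA carboxylase, differed by 0.00 with limits of −0.54 to 0.54. Acly, which makes cytosolic acetyl-CoA from citrate, differed by 0.39 (adjusted p = 0.432), and Mlxipl, the glucose-responsive factor ChREBP, by 0.32 (adjusted p = 0.376).

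Fasn, the fatty acid synthase, could not be measured as a change. Its probe cleared the background on 0 of 6 mimic scans and 1 of 4 scramble scans, with signals of −2.65, −2.05 and −1.86 on the mimic arrays against −1.16 and −1.45 on the scramble arrays. No fold is given, since only that 1 scramble scan was well above background. Acacb, the mitochondrial acetyl-CoA carboxylase whose product holds back fatty acid oxidation, was likewise above background on 0 of 6 mimic scans and 2 of 4 scramble scans by its better probe, and its scramble signal was at least 1.26-fold higher. Without the filter on dim probes Acacb was the 1 member called, as lower (limma, adjusted p = 0.0400), but on mimic signals that were not above background, so its size is known only by that bound.

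All 9 genes of elongation, desaturation and activation were measured and none was called, with differences between −0.59 and 0.995 and a median of −0.21. The difference farthest from 0 was that of Acsl5, an acyl-CoA synthetase that readies fatty acids for use in the cell. Its signal was 1.28, 2.04 and 2.02 on the mimic arrays, against 0.28 and 1.29 on the scramble arrays. The lowest mimic array lay just under the higher scramble array, so the groups overlapped, and the difference of 0.995 ± 0.36 (SE) had an adjusted p of 0.133 by limma. The other acyl-CoA synthetases among the members differed by −0.59 (Acsl3, adjusted p = 0.153) and −0.11 (Acsl4).

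Elovl5, which lengthens polyunsaturated fatty acids, differed by 0.58 (adjusted p = 0.164), and Elovl6, which lengthens palmitate, by 0.28. The front-end desaturases Fads1 and Fads2 differed by −0.39 and −0.54, and Fads3 by −0.23. The scramble signals of Fads2 were −1.10 and 0.26, a gap wider than that between the group means. Elovl1, which makes very long saturated chains, had 2 kept probes that parted. The brighter one stood for the gene and differed by −0.21, whereas the other had signals of 1.43, 1.38 and 1.23 on the mimic arrays against 2.01 and 2.53 on the scramble arrays. That second probe was lower in the mimic group on every array, with a difference of −0.92 (limma over probes, adjusted p = 0.0434).

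Of the 11 genes of triglyceride synthesis, 9 were measured, 1 was higher and 1 was lower, with a median difference of −0.25. The lower gene was Dgat2, which adds the third acyl chain and makes triglyceride, largely from newly made fatty acids. Its signal was 1.35, 1.78 and 1.35 on the mimic arrays, against 2.87 and 2.23 on the scramble arrays. The groups were clear of each other, and the difference was −1.06 ± 0.26 (SE), a 2.08-fold lower signal in the mimic group (limma, adjusted p = 0.0449). Dgat1, the unrelated enzyme of the same step, had a difference of −0.50 with limits of −1.05 to 0.05 (adjusted p = 0.237).

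The higher gene was Agpat2, which adds the second acyl chain and is the family member whose loss causes lipodystrophy in people. Its signal was 3.73, 3.87 and 3.63 on the mimic arrays, against 3.08 and 2.76 on the scramble arrays. No scramble array reached the lowest mimic array, and the difference was 0.82 ± 0.20 (SE), or 1.77-fold (limma, adjusted p = 0.0452). A second, dimmer probe of Agpat2 differed by 0.60, in the same direction, with overlapping groups and limits of −0.25 to 1.45 (adjusted p = 0.352). The other Agpat genes had differences of −0.28 (Agpat1), 0.01 (Agpat3), 0.43 (Agpat4) and −0.25 (Agpat5), none called. Lpin2 and Lpin3, phosphatidate phosphatases of the next step, differed by −0.23 and −0.25. No scan had Gpam, the mitochondrial enzyme of the first acylation, well above background, and Lpin1, the main lipin of muscle, was so on 1 of 6 mimic scans and 0 of 4 scramble scans.

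Over all 24 measured genes of synthesis in these roles, 1 was higher and 2 were lower (12.5% called, against the 9.35% of all genes), and the median difference was −0.23, against 0.09 for all genes.

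Among the droplet coat genes, 3 of 6 were measured, and all 3 had a positive difference, of which 1 was called. Plin4 encodes a perilipin that coats small, nascent droplets and is known from adipocytes and skeletal muscle. Its signal was 2.29, 2.58 and 2.37 on the mimic arrays, against 1.18 and 0.46 on the scramble arrays. The lowest mimic array was more than a doubling above the higher scramble array. The difference was 1.60 ± 0.26 (SE), or 3.03-fold, with limits of 1.01 to 2.19 (limma, adjusted p = 0.0077). The probe lies at chr17:56240055-56240114 on the minus strand in mm9, and it is the only probe of Plin4 on the array.

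Plin2, the perilipin found on droplets of nearly all cells and often used as a measure of stored fat, had signals of 5.81, 6.06 and 5.93 on the mimic arrays, against 5.16 and 5.55 on the scramble arrays. The mimic arrays were the higher ones without overlap, but the difference of 0.58 ± 0.21 (SE), or 1.49-fold, did not pass the test (limma, adjusted p = 0.140). Plin3, another broadly expressed perilipin, differed by 0.25 with limits of −0.25 to 0.74. Plin5, the perilipin of oxidative muscle, and the droplet fusion genes Cidea and Cidec were well above background on no scan.

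**Figure D2:**
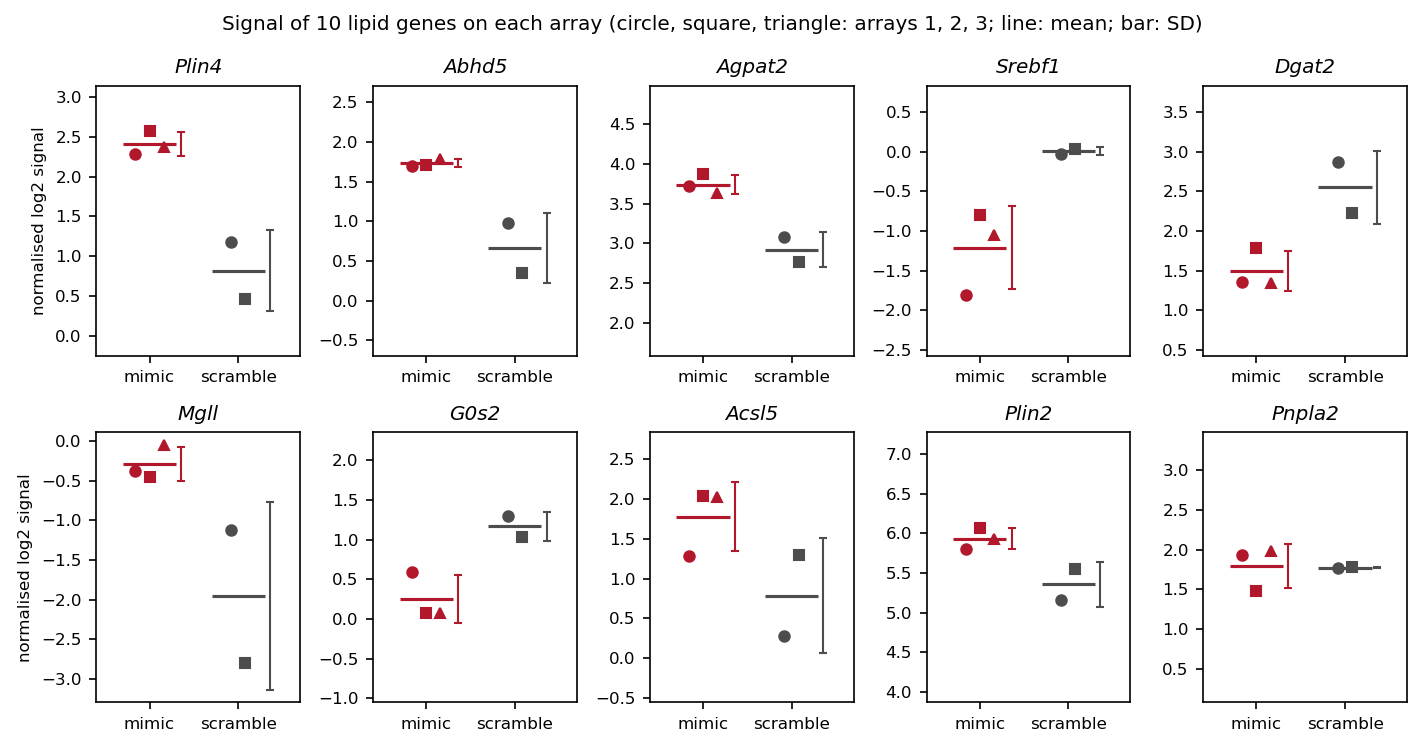
Normalised log2 signal of 10 members on each array, with the 3 mimic arrays left and the 2 scramble arrays right; lines are group means, bars are SD, and every panel spans the same number of log2 units. Plin4, Abhd5 and Agpat2 lie higher on the mimic arrays and Srebf1, Dgat2 and G0s2 lower, all without overlap, while Acsl5 and Pnpla2 overlap.

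Of the 6 lipolysis genes, 4 were measured and 1 was called, and their differences were between −0.92 and 1.67. Abhd5 encodes CGI-58, the coactivator of adipose triglyceride lipase. The probe that stood for it had signals of 1.69, 1.71 and 1.79 on the mimic arrays, against 0.97 and 0.35 on the scramble arrays. The mimic arrays lay close together and above both scramble arrays, and the difference was 1.07 ± 0.23 (SE), or 2.10-fold (limma, adjusted p = 0.0285).

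The 3 kept probes of Abhd5 did not move together, and the first 30 bases of each are shown so that they can be placed on the transcript. In mm9, on the plus strand, the full 60-base probes lie at chr9:122288857-122288916 (probe 1, which stood for the gene), chr9:122289983-122290042 (probe 2) and chr9:122277200-122277259 (probe 3).
Abhd5 probe 1: ctttcctttctcctacacagaattaaaata
Abhd5 probe 2: tcgacctcacaaatcacgactcgatgactt
Abhd5 probe 3: attgggcttcggaagaagtagtagacctaa
Probe 2 had signals of −0.16, 0.03 and 0.02 on the mimic arrays, against 0.14 and 0.49 on the scramble arrays, and probe 3 had −0.87, −1.19 and −0.55 against −1.52 and −0.62. Their differences were −0.36 (limits −0.83 to 0.12) and 0.20 (limits −0.53 to 0.92), and neither was called. The rise of Abhd5 thus rests on 1 of its 3 probes, and with the mean of the 3 probes it was 0.30 and not called (limma, adjusted p = 0.352). Over all members, 6 of 38 kept probes were called (15.8%, against 9.13% of the 17455 probes tested). Of the 6 members with more than 1 kept probe, Abhd5 and Mlxipl had probes of opposite sign, the second probe of Mlxipl differing by −0.21.

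**Figure D3:**
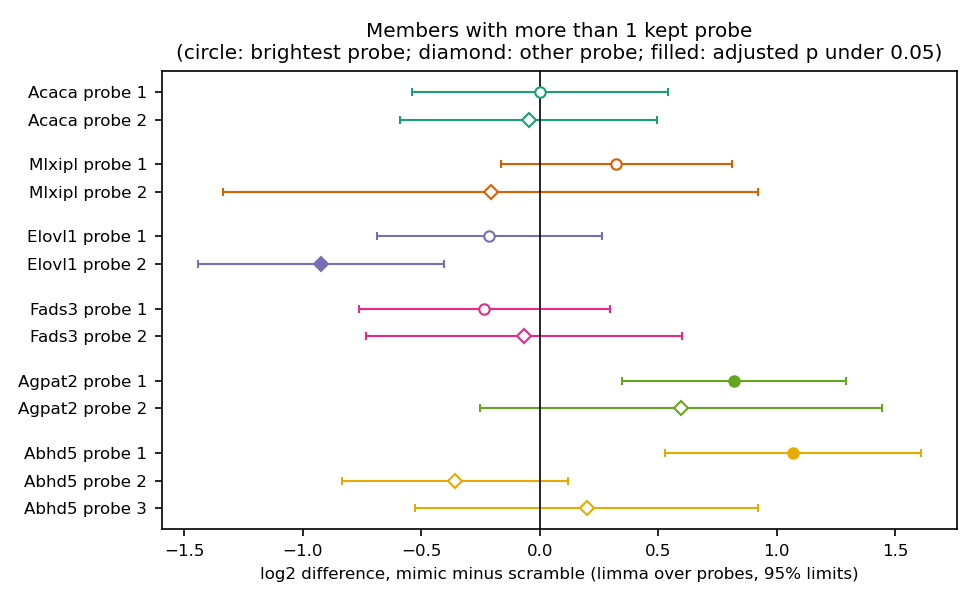
The fitted log2 difference, mimic minus scramble, of each kept probe of the 6 members with more than 1; bars are 95% limits of limma over probes, circles are the brightest probe of a gene and diamonds its other probes, and filled marks have an adjusted p under 0.05. The brightest probe of Abhd5 lies at 1.07 and its other probes at −0.36 and 0.20, and for Elovl1 only the dimmer probe is called.

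Mgll, which splits monoglyceride in the last step of lipolysis, had the widest spread. Its signal was −0.37, −0.45 and −0.05 on the mimic arrays, against −1.12 and −2.79 on the scramble arrays. The groups did not overlap, but the probe cleared the background on 5 of 6 mimic scans and only 1 of 4 scramble scans, and the scramble arrays lay farther from each other than scramble array 1 lay from any mimic array. The fitted difference of 1.67 ± 0.44 (SE) did not pass the threshold (limma, adjusted p = 0.0529), and its size is uncertain. With scramble signals raised to the lowest signal well above background of their array it was 0.83 (1.78-fold), with normexp background correction 0.55, and without single arrays 0.83 to 2.51, the lowest without scramble array 2 and the highest without scramble array 1. The other 3 probes of Mgll were well above background on no scan.

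G0s2, the inhibitor of adipose triglyceride lipase, had signals of 0.60, 0.07 and 0.08 on the mimic arrays, against 1.29 and 1.04 on the scramble arrays. The mimic arrays were all below the scramble arrays, and the difference of −0.92 ± 0.24 (SE) fell just short of the threshold (limma, adjusted p = 0.0511). The lipase gene itself, Pnpla2, had signals of 1.94, 1.48 and 1.98 on the mimic arrays, against 1.77 and 1.78 on the scramble arrays. The scramble values lay within the range of the mimic values, and the difference was 0.02 with limits of −0.49 to 0.54. Lipe and Pnpla3, a lipase-related gene best known from liver, were well above background on no scan.

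The arrays lie in 2 rows of the slide, with mimic arrays 1 and 3 and scramble array 1 in row 1 and mimic array 2 and scramble array 2 in row 2. The difference had the same sign in both rows in 21 of the 31 members and on both scan days in 28. For Plin4 it was 1.15 in row 1 and 2.12 in row 2, for Abhd5 0.77 and 1.36, and for Agpat2 0.60 and 1.11. For Dgat2 it was −1.52 in row 1 and −0.45 in row 2, for Srebf1 −1.39 and −0.83, and for G0s2 −0.96 in either row. Mgll, at 0.91 and 2.35, was larger in row 2, and Acsl5, at 1.38 and 0.75, in row 1. The row of an array and the scramble array it holds cannot be told apart. With the row as a block, Plin4 stayed called at 1.57 (limma, adjusted p = 0.0210), the 1 member of 31 called (3.23%, against 6.08% of all genes in that fit). The other 4 called members kept their sign and lost the call: Abhd5 at 1.02 (adjusted p = 0.0548), Srebf1 at −1.15 (0.0769), Dgat2 at −1.06 (0.0884) and Agpat2 at 0.82 (0.0948).

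Among 20 other ways of processing, Plin4 was called in 19, Dgat2 in 11, Abhd5 in 10, Agpat2 in 9 and Srebf1 in 7 of the 19 that could test it. G0s2 was called in 9 of 20, Mgll in 6 of 19, Acsl5 in 2 and Plin2 in 1. The direction of each of these 9 genes stayed the same in all of them. Each tally includes the fit that takes the 10 labelled samples as replicates, which counts an array more than once. A fit of labelled samples with their replicate number as a block, also included, does so too. It called all of these genes but Acsl5 and Plin2. The fit of the 10 labelled samples gave the 1 call of Plin2 and 1 of the 2 calls of Acsl5. A single array decided several calls. Without mimic array 1 or without mimic array 3 the 1 member called was Plin4 (3.23% of members, against 3.88% and 4.20% of all genes), and without mimic array 2 Plin4 and Srebf1 were called (6.45%, against 4.72%). Leaving out scramble array 1 gave 10 called members (32.3%, against 27.4% of all genes), and leaving out scramble array 2 gave 3 (Plin4, Dgat2 and Acsl5; 9.68%, against 6.90%). In these fits with 1 scramble array, that array is assumed to vary like the mimic arrays. Plin4 was called in all 5 fits that left out an array, at 1.24 to 1.96.

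**Figure D4:**
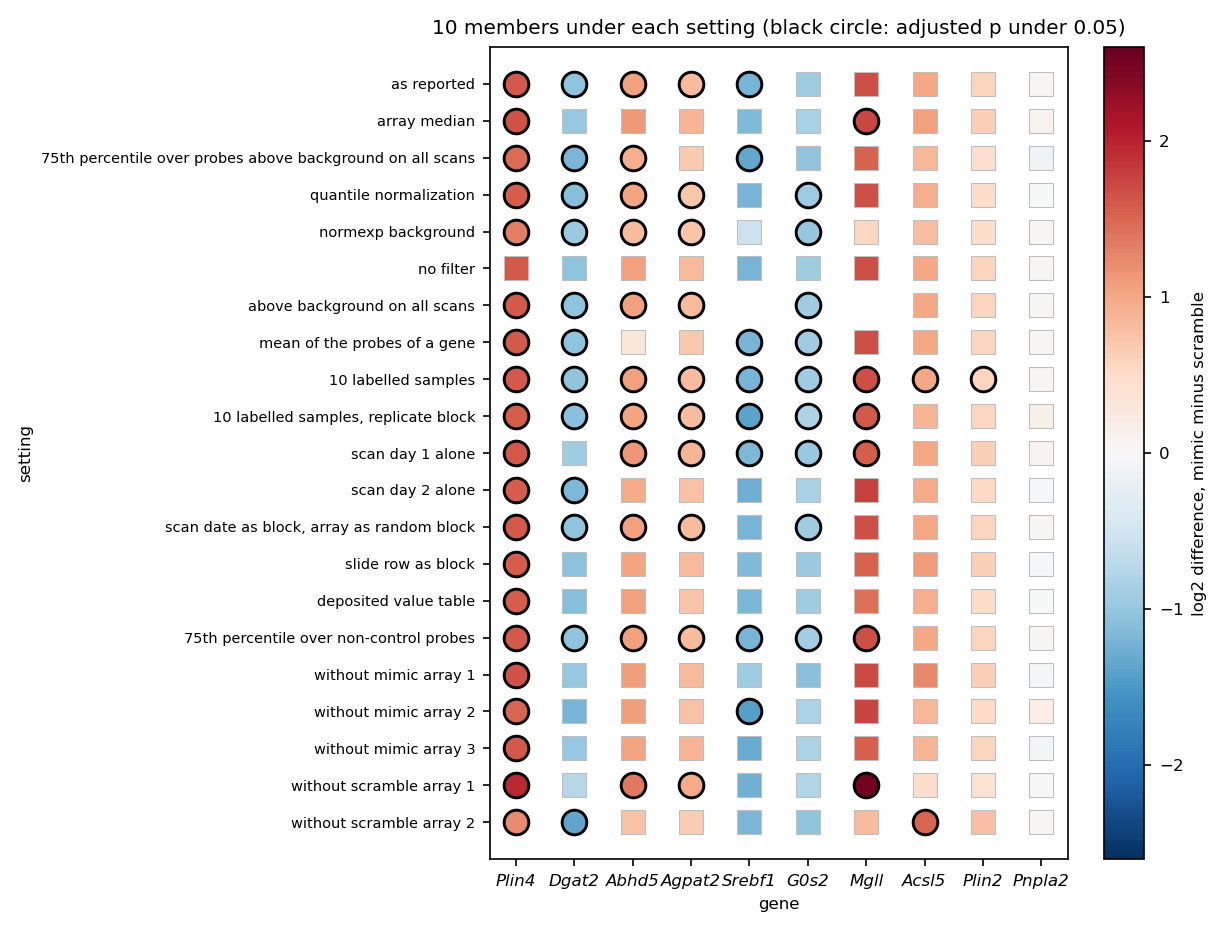
The log2 difference, mimic minus scramble, of 10 members (columns) under the reported processing and 20 alternatives (rows), shown by colour; black-edged circles have an adjusted p under 0.05 and squares do not, and an empty place means that the gene was not tested. Plin4 is called in every row but the one without a filter, and Pnpla2 is near white throughout.

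A list of 54 other genes of lipid handling was read from the same fit: 38 were measured, 1 was higher and 2 were lower (7.89% called, against the 9.35% of all genes given above), with a median difference of 0.26. The higher gene was Pparg, the nuclear receptor that drives fat cell formation and activates genes of lipid storage, among them Plin4 in adipocytes. Its signal was 4.02, 4.22 and 3.97 on the mimic arrays, against 3.02 and 2.65 on the scramble arrays. The groups were well apart, and the difference was 1.24 ± 0.21 (SE), or 2.36-fold (limma, adjusted p = 0.0102). Cebpa, its partner in fat cell formation, differed by 0.56 and was not called (adjusted p = 0.319).

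Both lower genes of that list are known from muscle, and Fitm1 passed the filter on dim probes through its scramble scans alone. Fitm1, a droplet-forming protein of skeletal and heart muscle, had signals of −2.19, −2.64 and −1.81 on the mimic arrays, against −0.57 and −0.38 on the scramble arrays. It cleared the background on 0 of 6 mimic scans and all 4 scramble scans, and was at least 1.96-fold lower in the mimic group. Its adjusted p of 0.00637 by limma belongs to the fit on those dim mimic signals and not to the bound. Hacd1, a dehydratase of fatty acid elongation that is strongest in muscle, had 4.14, 4.34 and 4.38 on the mimic arrays, against 5.41 and 5.03 on the scramble arrays. The mimic arrays were the lower ones without overlap, by 0.94 (adjusted p = 0.0321). Fabp3, the fatty acid carrier of muscle, differed by −0.84 and was not called (adjusted p = 0.0552). Acot7, of the same list, lay about as near the threshold in the other direction, at 0.71 (limma, adjusted p = 0.0561).

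Because Srebf1 was lower, the windows of 250 bases before the start of each gene in RefSeq's GRCm38.p6 were searched on both strands for the sterol response element, spelled TCACNCCAC. It stood in 1 of 46 windows of the 33 members that had one (2.17%, at Mlxipl), against 1.05% of all 32851 windows. The E-box CACGTG, which SREBP-1 and ChREBP can also bind, stood in 5 windows (10.9%), against 6.02%. These counts describe letters in a short window and say nothing about binding.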

How the data were processed

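Per the labels' protocols, 150 ng of RNA was labelled with Cy3 and hybridised to 1-colour Agilent arrays. The deposited scanner files hold spot intensity on a linear scale, background-corrected by the authors with Feature Extraction, version 12.0.0.7 per the file headers and 10.7.3.1 per the submitters' processing notes. A deposited table of processed intensity values, on a linear scale that tracked the scanner signals at r = 0.996 or more, served as an alternative. How its arrays were brought to 1 scale is not stated.

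The signal was log2 of the processed signal minus the 75th percentile over non-control spots of the scan. Non-uniform and outlier spots were left out and spots of a probe averaged. A probe was kept when well above background (at least 0.5 of its spots) on 4 of 10 scans, which left 17455 probes, and the brightest kept probe stood for its gene (13677 genes). Old gene symbols were replaced from RefSeq's GRCm38.p6 table, whose gene coordinates were not used. The 23942 of 55681 probes without a match there kept their name from the scanner output, and each such name counted as a gene. Scans of an array were averaged. The test was limma's moderated fit (lmFit, eBayes; limma 3.58.1, R 4.3.3), with 3 residual degrees of freedom plus a prior of 4.89, and it was tested on simulated data. Differences are mimic minus scramble. The headers do not tie an array position to a culture, so the spread behind the p-values, over 5 arrays, may be partly technical, and their number limits the precision. Where no scan of a group was well above background, a fold is given only as a bound: the brighter group's mean against the dim probe's signals, each raised to the lowest well above background of its array if under it.

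Values per array are given for members called, for those with a difference of at least 0.8 in size, and for Plin2, Pnpla2 and Fasn; of the other lipid genes those called are named. Fabp3, Acot7 and Cebpa were named after their values were seen. The members and all lists were chosen with earlier results of these data known.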

Additional observations from a re-analysis of the deposited data

How the results depend on the processing

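Of 1279 called genes, 5 called members and 6 called member probes, the counts under another processing were as follows. Scaling to the array median gave 803 genes, 2 members and 2 probes. No filter on dim probes gave 423, 1 and 1, over 34607 genes. Taking the 10 labelled samples as replicates gave 4209, 14 and 15. The slide row as a block gave 832, 1 and 1, and the authors' deposited values gave 647, 1 and 1. Scan day 2 alone gave 923 genes, 2 members and 2 probes. Leaving out 1 array in turn gave 530 to 3742 genes, 1 to 10 members and 1 to 11 probes, the highest each time without scramble array 1. With the replicate number as a block over labelled samples 1 to 4 of each group, 2298 genes, 7 members and 8 probes were called. The median difference of members was then −0.13. That block is not taken as a pairing: deviations of same-numbered scans correlated at −0.40 to 0.19, and 1 of 4 scramble scans correlated best with its own number. The 75th percentile over non-control probes, chosen after seeing the data, gave 1332 genes, 7 members and 7 probes.

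The median difference of members stayed between −0.24 and 0.02 in all 20 alternatives. The median of all genes moved by −0.13, to −0.04, with the percentile over probes above background on all scans, which gave 674 higher and 664 lower genes (756 and 523 otherwise), and by −0.18, to −0.09, without a filter. The median of members relative to that of all genes was −0.20 with that percentile and −0.20 as reported. Plin4 lost its call only without a filter (limma, adjusted p = 0.0746). Pnpla2, never called, turned negative with the percentile over bright probes (−0.11), quantile normalization (−0.019), scan day 2 alone (−0.028), the slide row block (−0.023), the deposited table (−0.016), and without mimic array 1 (−0.047) or 3 (−0.070), its range over the left-out arrays being −0.070 to 0.18. Causes of these changes were not tested. Low signal limited 9 members, which were too dim to test, and Srebf1, Fads2 and Mgll, which were not well above background on every scan.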
